A study of Mus musculus with 31 samples.

Results

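The ionotropic and metabotropic receptors for glutamate and the receptors for GABA were followed through hypothalamic RNA of mice whose mothers had eaten a control or an obesogenic diet. Members were the protein-coding genes of the deposited table whose symbols begin with Gria, Grik or Grm and a number, with Grin1, Grin2 or Grin3, with Gabr and a subunit letter (alpha to epsilon, theta, pi and rho), or that are Gabbr1 or Gabbr2. That rule found 45 of 54532 genes: 4 AMPA, 5 kainate and 7 NMDA receptor subunits, 8 metabotropic glutamate receptors, 19 GABA-A subunits with the rho subunits counted among them, and 2 GABA-B subunits. RNA came from C57BL/6J mice, an inbred strain, aged 4 months. Through pregnancy and lactation their dams ate either control food or food high in fat and sugar, called obesogenic. All offspring were weaned at postnatal day 21 to chow, and all of them, also those of control dams, were fed obesogenic diet for 4 weeks beginning at 3 months, so no group here was without that diet. There were 8 libraries from daughters and 8 from sons of control dams, and 7 from daughters and 8 from sons of obesogenic dams, named below by the diet of the dam and the sex of the offspring (control female 1, obesogenic male 1 and so on). The labels name no animal, litter or batch, so p-values measure the spread between these libraries, which may be technical or shared by littermates.

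Glutamate is the main excitatory and GABA the main inhibitory transmitter of the adult brain. AMPA and kainate receptors are fast cation channels, NMDA receptors are calcium-permeable channels that need coincident glutamate and depolarization, and metabotropic receptors act through G proteins. GABA-A receptors are chloride channels built from several subunits, in which the subunit at the gamma or delta position decides whether a receptor mostly sits in synapses or outside them, and GABA-B receptors are G protein-coupled pairs of Gabbr1 and Gabbr2. In the hypothalamus both transmitters reach the neurons that set appetite, body temperature and hormone release.

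Libraries held 23118626 to 38547288 counted read pairs, so that 1 pair was worth 0.0259 to 0.0433 CPM (counts scaled to a common library size), and 18743 genes, among them 41 members, had enough reads to be tested. 5 libraries were in doubt. Control female 5, control male 6 and obesogenic female 3 had median correlations with the other libraries of 0.910, 0.914 and 0.936, where the other 28 libraries had 0.967 to 0.979. The libraries labelled control female 7 and control male 7 carried the X- and Y-linked RNA of the opposite sex. Results were computed with all 31 libraries and again without these 5. Control female 5 nearly lacked Pmch (0.0270 CPM) and Hcrt (0.108 CPM), 2 defining transcripts of the lateral hypothalamus, and the summed level of 20 hypothalamic markers was 291 CPM there against 1375 to 2515 CPM in the 26 libraries not in doubt.

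Among the AMPA receptor genes, Gria1 was the most abundant by a wide margin. Compared per length, as CPM per kilobase of exon, it had a level of 92.3 ± 6.998 (mean ± SD over the 26 libraries, as for the other levels given per kilobase). The length of a gene was that of all its annotated exons together, which need not match the transcripts present here. Gria4 followed with 17.998 ± 1.96, Gria2, whose product keeps calcium out of the channel, with 17.1 ± 2.602, and Gria3 with 6.64 ± 0.824 CPM per kilobase. Gria1 therefore made up 68.9 ± 2.06% of the summed AMPA subunit level per length, and Gria4 and Gria2 made up 13.4 ± 0.796% and 12.7 ± 1.34%. The share of Gria1 stayed between 64.2% and 72.9% in each of the 26 libraries. Of the kainate receptor genes, Grik5, an auxiliary high-affinity subunit, had 24.1 ± 2.29 CPM per kilobase and 46.9 ± 2.94% of the family's sum. Grik3 had 12.6 ± 1.69, Grik4 6.01 ± 0.413, Grik2 4.87 ± 0.535 and Grik1 3.76 ± 0.603 CPM per kilobase. That Grik4 came before Grik2 also rests on the exon lengths, 5962 against 13246 bases. In CPM their medians were 36.3 and 64.5 (26 libraries).

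Grin1, the obligatory NMDA receptor subunit, had 27.2 ± 3.48 CPM per kilobase. The GluN2 subunits, which set the kinetics of the receptor, were present together. Grin2c stood at 4.80 ± 1.04, Grin2d at 4.67 ± 0.519, Grin2b at 3.25 ± 0.804 and Grin2a at 1.16 ± 0.224 CPM per kilobase. Grin2c and Grin2d thus held 34.4 ± 5.66% and 33.7 ± 3.59% of the GluN2 sum per length and did not differ beyond their spread, while Grin2a held 8.43 ± 1.73%. This order rests on the exon lengths, 24842 bases for Grin2b and 17933 for Grin2a against 6658 for Grin2d and 5037 for Grin2c. In CPM Grin2b came first with a median of 77.5, before Grin2d with 31.1, Grin2c with 23.7 and Grin2a with 20.2 (26 libraries). The share of Grin2b had the widest range of the 4, from 13.1% to 40.4%. The glycine-binding subunit Grin3a had 7.41 ± 0.881 CPM per kilobase and its relative Grin3b 0.135 ± 0.0871, the lowest level among the glutamate receptor genes that were tested.

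Of the metabotropic glutamate receptors, Grm5, coupled to phospholipase C, had 9.10 ± 1.59 CPM per kilobase, Grm3 9.01 ± 2.22, and the presynaptic receptor gene Grm7 8.89 ± 0.995. Per length these 3 did not differ beyond their spread between libraries, while their medians over the 26 libraries were 92.7, 26.7 and 52.2 CPM. Grm2 had 5.56 ± 1.69, Grm4 4.43 ± 0.721 and Grm8 2.07 ± 0.240 CPM per kilobase. Grm6, the receptor of retinal ON bipolar cells, had 0 read pairs in 31 libraries, which allows at most 0.00314 CPM over all libraries by a floor of 3 pairs (counting error only).

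**Figure D1:**
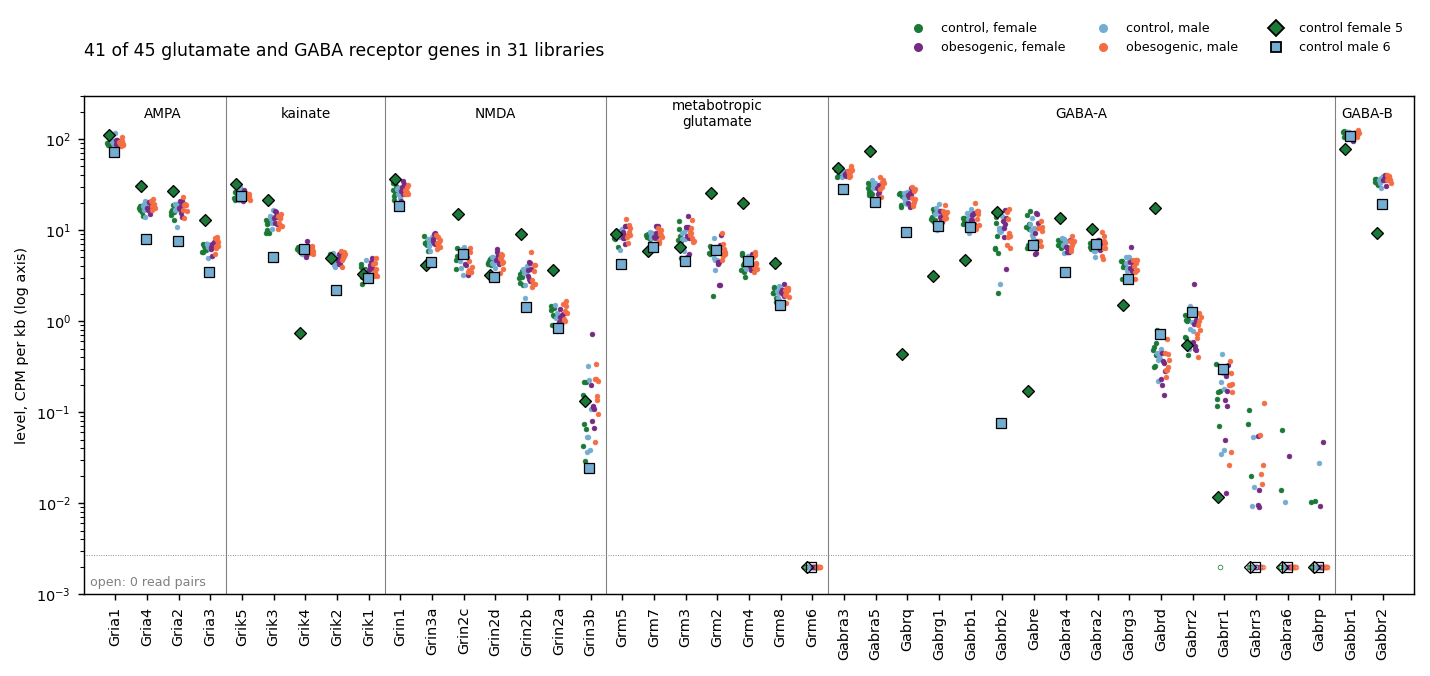
Level of 41 of the 45 receptor genes in each of 31 libraries, in CPM per kilobase on a log axis, ordered by family and by mean level, with groups in colour and libraries without a read pair drawn open at the bottom. Gabbr1 and Gria1 lie highest, Grm6 has no read pair in any library, and control female 5 (diamond) is far above the other libraries for Gabrd and far below them for Gabrq, Gabre and Grik4.

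Of the alpha subunits of the GABA-A receptor, Gabra3 led with 43.2 ± 3.27 CPM per kilobase, ahead of Gabra5 with 28.9 ± 4.71. Gabra4 and Gabra2 had 7.0004 ± 0.819 and 6.78 ± 1.04. Gabra3 and Gabra5 thus held 35.4 ± 2.18% and 23.5 ± 2.50% of the alpha sum. Gabra6, a subunit of cerebellar granule cells, had 9 read pairs in 4 of 31 libraries. Of the beta subunits, Gabrb1 had 13.3 ± 2.50 and Gabrb2 9.98 ± 4.06 CPM per kilobase.

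At the remaining position of the GABA-A receptor, the theta subunit Gabrq had 22.8 ± 3.48 CPM per kilobase and 25.5 ± 2.25% of the summed level of the gamma, delta, epsilon, theta and pi subunits. Gabrg1 followed with 14.8 ± 2.03, the epsilon subunit Gabre with 9.80 ± 2.94 and Gabrg3 with 4.12 ± 0.634 CPM per kilobase. Gabre and Gabrq, known for expression in the hypothalamus and brainstem, together with Gabra3 lie side by side on chromosome X between 72255999 and 72842602 (build GRCm38). The delta subunit Gabrd, which forms receptors outside synapses, had 0.395 ± 0.142 CPM per kilobase and only 0.445 ± 0.162% of this sum. The rho subunits Gabrr2 and Gabrr1, at home in the retina, had 0.840 ± 0.280 and 0.168 ± 0.119 CPM per kilobase. Gabbr1 had the highest level of all members, 112 ± 7.73 CPM per kilobase, and its partner Gabbr2 had 35.7 ± 2.94.

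16 of the 19 GABA-A members lie in 5 clusters in the annotation. On chromosome 5 (70751047 to 72149037) Gabrg1, Gabra2, Gabra4 and Gabrb1 had levels of 6.96 to 14.3 CPM per kilobase. Gabra4 and Gabrb1 overlap on opposite strands over 196 bases, which the strand-specific counting of the authors keeps apart.

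The 4 members that could not be tested were Gabra6, Gabrp (11 read pairs in 5 libraries), Gabrr3 (85 pairs in 15 libraries) and Grm6. Promoter sequences from RefSeq (build GRCm38.p6) were at hand for 32 of the 45 members. The 250 bases before the start annotated there were read for CpG dinucleotides. These are the sites of DNA methylation that are dense in promoters of broadly used genes. For some members this window lay inside the gene as the counts annotate it, among them the untested Gabrp and Gabrr3 and the tested Grin2d and Gabrb2. The members had a median of 10.5 CpG, against 6 over 27025 promoters, and 8 of the 32 member promoters (25%) had 5 or fewer against 49.5% of all. All 4 untested members were among these 8 low-CpG members, with 1 to 4 CpG, while the tested members ranged from 0 to 42. The motif TGACGTCA, the full cAMP response element (palindromic, so identical on both strands), was in 0 of 32 member promoters and in 1.599% of all. The 4 windows below, shown because they belong to the most and least abundant members that have a sequence and a window outside the gene, have CpG in capitals. Gabbr1 (chr17:37045716-37045965, forward strand, 16 CpG) and Gabra3 (chrX:72656920-72657169, reverse strand, 0 CpG) are the 2 with the highest levels, and Gabra6 (chr11:42321073-42321322, reverse strand, 2 CpG) and Grm6 (chr11:50850435-50850684, forward strand, 4 CpG) the 2 with the lowest.
Gabbr1: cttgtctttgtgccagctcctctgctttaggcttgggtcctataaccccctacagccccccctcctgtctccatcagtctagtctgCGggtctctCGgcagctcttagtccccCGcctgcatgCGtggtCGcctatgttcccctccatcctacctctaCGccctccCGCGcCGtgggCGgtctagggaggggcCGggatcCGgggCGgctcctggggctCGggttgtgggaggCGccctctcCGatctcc
Gabra3: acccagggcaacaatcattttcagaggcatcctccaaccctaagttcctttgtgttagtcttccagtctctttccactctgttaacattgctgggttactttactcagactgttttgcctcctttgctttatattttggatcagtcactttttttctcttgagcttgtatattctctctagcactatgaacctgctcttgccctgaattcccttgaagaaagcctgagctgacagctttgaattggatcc
Gabra6: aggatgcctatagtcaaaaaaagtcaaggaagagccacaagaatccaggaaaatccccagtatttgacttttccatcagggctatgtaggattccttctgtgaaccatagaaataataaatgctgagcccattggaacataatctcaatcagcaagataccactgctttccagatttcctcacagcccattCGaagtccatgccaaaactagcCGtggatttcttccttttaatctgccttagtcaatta
Grm6: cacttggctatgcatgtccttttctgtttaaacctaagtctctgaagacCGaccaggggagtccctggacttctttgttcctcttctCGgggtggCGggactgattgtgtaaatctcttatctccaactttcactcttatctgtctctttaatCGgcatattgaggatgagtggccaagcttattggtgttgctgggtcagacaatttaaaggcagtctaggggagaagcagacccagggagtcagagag
Gabra3, the most abundant alpha subunit per length, thus had no CpG in this window, and Gabrg1 had 1.

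Whether maternal diet altered these genes was asked first of the daughters. No member passed an adjusted p under 0.05 in edgeR's quasi-likelihood test, as was the case for all 18743 genes (0% called). At an unadjusted p under 0.05 stood 7 of 41 members, 4 higher and 3 lower, beside 8.12% of all genes (3.37% higher and 4.75% lower). The values lay on both sides of 0: 22 of 41 members had a positive log2 fold change, with a median of 0.003, where all genes had a median of -0.013 and 47.5% were positive. For every one of the 41 members the libraries of the 2 groups overlapped, and groups that did not overlap were also rare elsewhere, at 0.117% of all genes tested. DESeq2 called 6 genes (0.032%), none of them a member, and limma voom called 0 genes. At an unadjusted p under 0.05 DESeq2 had 9 members, beside 8.12% of all genes.

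Gabrd (ENSMUSG00000029054, chromosome 4, 155384980 to 155398112, reverse strand, build GRCm38 for this and the following positions) had the smallest p of the members and a very large fold change that rested on 1 library. Its levels in the 8 control females were 1.37, 0.895, 1.51, 0.920, 50.8, 1.66, 1.21 and 2.31 CPM in the order of replicates 1 to 8. The 7 obesogenic females had 0.657, 1.30, 0.569, 1.05, 0.998, 0.447 and 0.822 CPM. Control female 5 stood far above the rest, whose highest value was 2.31 CPM, and gave 1883 of the 2189 Gabrd read pairs of its group, and without it the groups still overlapped. With all libraries the log2 fold change was -3.19 ± 0.73 (SE; 95% interval -4.68 to -1.70; unadjusted p = 0.000135, edgeR adjusted p = 0.5003), against a control mean of 7.59 ± 17.5 CPM that control female 5 set.

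Without control female 5 the Gabrd difference was -0.75 ± 0.30 (edgeR adjusted p = 0.701), and without all 5 libraries in doubt it was -0.72 ± 0.31 (adjusted p = 0.553). In that last set 6 control daughters had 1.45 ± 0.526 CPM and 6 obesogenic daughters 0.879 ± 0.303 CPM, with ranges of 0.895 to 2.31 CPM (median 1.44) and 0.447 to 1.30 CPM (median 0.910). DESeq2, which replaces counts that lie far from their group in groups of this size, gave -0.71 ± 0.28, and limma voom, which weights libraries by quality, -0.57 ± 0.30. The direction was the same in all of these fits. The 7 obesogenic females held 172 Gabrd read pairs in all.

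Control female 5 also held markers of other tissue. All 10 genes of an olfactory bulb marker list lay above the range of the 26 libraries there, with a summed level of 3132 CPM against 288 to 517 CPM. Doc2g and Cdhr1, transcripts of mitral and tufted cells, had 233 and 739.8 CPM against highest values of 1.73 and 9.06 CPM in the 26 libraries. 16 of 20 hypothalamic markers lay below that range, and 7 of them, Nr5a1, Fezf1, Hmx3, Sim1, Agrp, Nkx2-1 and Prlr, had no read pair. Cerebral cortex and hippocampus markers (5 of 10 above the range) and thalamus markers (3 of 9) were less uniformly high. The part of these other cells in the Gabrd difference was not tested, beyond the values without this library.

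**Figure D2:**
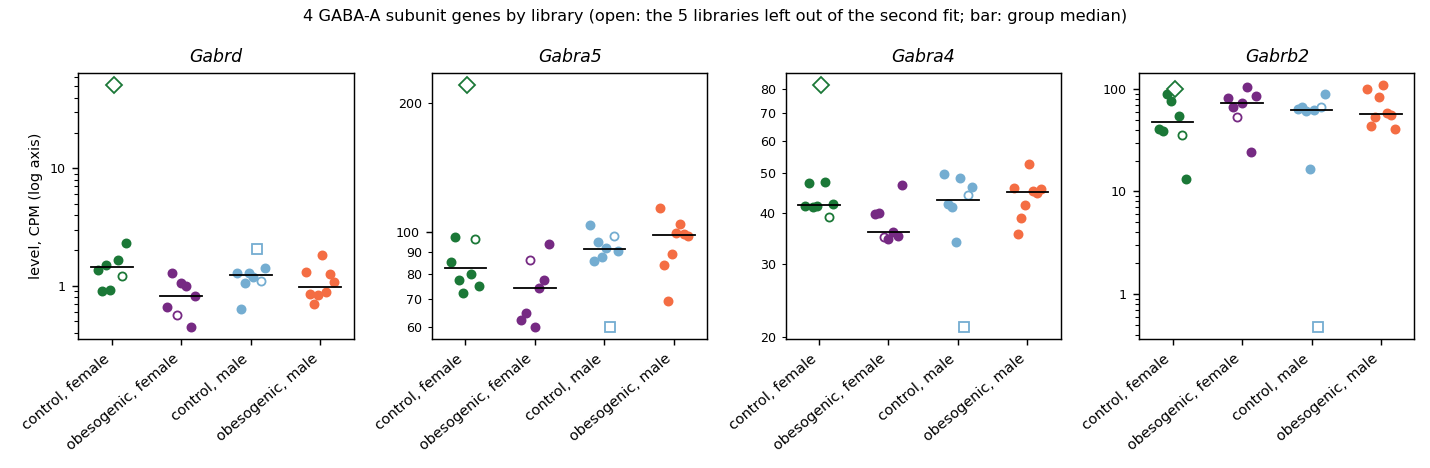
Level of Gabrd, Gabra5, Gabra4 and Gabrb2 in each library by group, in CPM on log axes with a scale of its own for each gene, bars at group medians and the 5 libraries left out of the second fit drawn open (diamond, control female 5; square, control male 6). Gabrd, Gabra5 and Gabra4 are highest in control female 5, at 50.8, 221 and 81.9 CPM, and Gabrb2 is lowest in control male 6, at 0.479 CPM.

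2 alpha subunits came next in daughters and shared that library. Gabra5 (ENSMUSG00000055078, chromosome 7, 57407672 to 57510059, reverse strand), an alpha subunit of receptors outside synapses that is best known from the hippocampus, had a lowest level of 72.2, a median of 82.7 and a highest level of 221 CPM among control daughters and a lowest level of 60.2, a median of 74.2 and a highest level of 93.97 CPM among obesogenic ones. Control female 5 gave the highest of these, and the next control library had 97.5 CPM. The log2 difference came to -0.44 ± 0.17 (edgeR adjusted p = 0.555) and -0.17 ± 0.10 without the 5 libraries (adjusted p = 0.66). Gabra4 (ENSMUSG00000029211, chromosome 5, 71569749 to 71658308, reverse strand) had a lowest level of 39.1, a median of 41.9 and a highest level of 81.9 CPM in control and a lowest level of 34.7, a median of 35.96 and a highest level of 46.8 CPM in obesogenic females, again highest in control female 5. The difference was -0.33 ± 0.14 (edgeR adjusted p = 0.589), and -0.17 ± 0.092 in the smaller set.

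Grin2d (ENSMUSG00000002771, chromosome 7, 45831883 to 45878378, reverse strand), the slowly deactivating NMDA receptor subunit of the diencephalon, went the other way. Control females had a lowest level of 21.6, a median of 29.2 and a highest level of 32.9 CPM and obesogenic females a lowest level of 27.9, a median of 34.2 and a highest level of 41.6 CPM. The highest value came from obesogenic female 3 and the lowest from control female 5, both in doubt. The log2 fold change was 0.24 ± 0.11 (edgeR adjusted p = 0.599; 6 of 7 obesogenic females above the control mean), and 0.12 ± 0.095 without the 5 libraries.

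The most abundant member of each family was also compared in daughters. For Gria1 (ENSMUSG00000020524, chromosome 11, 57011387 to 57330244, forward strand) the levels were 559 ± 47.1 CPM (SD, n = 8) and 560.5 ± 28.4 CPM (SD, n = 7), and the 95% interval of the log2 fold change was -0.15 to 0.16. For Gabbr1 (ENSMUSG00000024462, chromosome 17, 37045966 to 37075067, forward strand) they were 852 ± 112 CPM and 836 ± 70.8 CPM, with an interval of -0.18 to 0.13. Grin1 (ENSMUSG00000026959, chromosome 2, 25291181 to 25319187, reverse strand) had 271.1 ± 49.1 CPM and 276 ± 44.6 CPM with an interval of -0.20 to 0.25. Grik5 (ENSMUSG00000003378, chromosome 7, 25009849 to 25072346, reverse strand), Gabra3 (ENSMUSG00000031343, chromosome X, 72432681 to 72656848, reverse strand) and Grm5 (ENSMUSG00000049583, chromosome 7, 87584168 to 88134907, forward strand) had intervals of -0.25 to 0.081, -0.24 to 0.091 and -0.20 to 0.38. Gabra6 had 6 read pairs in control and 2 in obesogenic females, too few to compare.

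In sons, obesogenic males were compared with control males. Again 0 members and 0 of 18743 genes passed in edgeR (0% called), and 1 member had an unadjusted p under 0.05, beside 3.45% of all genes. DESeq2 called 1 gene (0.00534%), which was no member. Most members had values above 0 in sons: 33 of 41 had a positive log2 fold change (median 0.085), where 50.1% of all genes were positive (median 0.00038). The glutamate receptor genes had 20 of 23 above 0 with a median of 0.13, and the GABA receptor genes 13 of 18 with a median of 0.075. Without the 5 libraries 28 of 41 were positive with a median of 0.054, beside 52% of all genes.

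The kainate subunit gene Grik2 (ENSMUSG00000056073, chromosome 10, 49094833 to 49788766, reverse strand) had 58.7 ± 13.8 CPM among control sons and 67.9 ± 8.25 CPM among obesogenic ones, a log2 fold change of 0.21 ± 0.11, and the AMPA subunit gene Gria3 (ENSMUSG00000001986, chromosome X, 41400854 to 41678601, forward strand) had 60.4 ± 12.5 CPM and 70.2 ± 9.52 CPM, a change of 0.22 ± 0.14 (edgeR adjusted p = 0.940 for both). Without the 5 libraries the values were 0.13 ± 0.083 and 0.12 ± 0.09. Control male 6 had the lowest level of both genes. Of the abundant members, Gria1 had an interval of -0.15 to 0.15, Gabbr1 of -0.14 to 0.16, Grin1 of -0.14 to 0.29, Grik5 of -0.23 to 0.09, Gabra3 of -0.09 to 0.23 and Grm5 of -0.069 to 0.49. Gabrd, at 0.631 to 2.07 CPM (median 1.23) in control and 0.693 to 1.83 CPM (median 0.984) in obesogenic males, had a log2 fold change of -0.20 ± 0.66. That error rests on a spread that all 31 libraries share in the model, and the value was -0.065 ± 0.29 without the 5 libraries. Gabra6 had 1 read pair in control and 0 in obesogenic males.

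**Figure D3:**
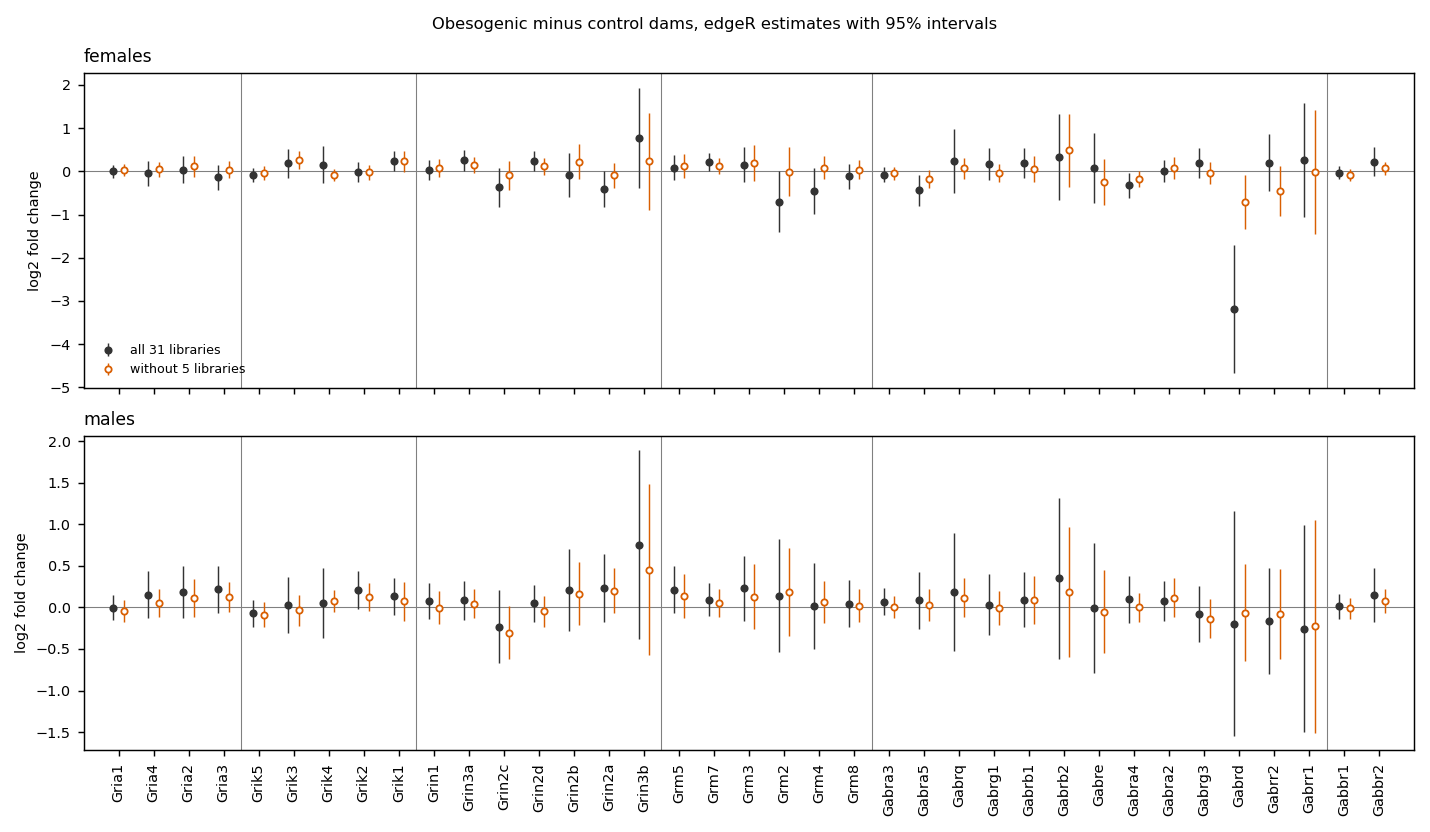
Log2 fold change of 37 of the 41 receptor genes tested, obesogenic minus control dams, in females (top) and males (bottom), as edgeR estimates with 95% intervals from all 31 libraries (black) and from 26 libraries (orange), grouped by family with lines between families and with a scale of its own in each panel. Only the black Gabrd point in females, at -3.19, lies far from the rest, and it moves to -0.72 in the set of 26 libraries.

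Averaged over both sexes, 3 of 41 members had an unadjusted p under 0.05, beside 10.2% of all genes, and 0 members and 0 genes passed after adjustment in edgeR (0% called). Gabrd had the smallest p with -1.69 ± 0.48 (adjusted p = 0.464), which was -0.39 ± 0.21 without the 5 libraries. Grik1 (ENSMUSG00000022935, chromosome 16, 87895900 to 88290265, reverse strand), a kainate receptor subunit, was next with a log2 fold change of 0.18 ± 0.079 (edgeR adjusted p = 0.464). It had 23.5 ± 3.56 CPM and 27.6 ± 2.88 CPM in control and obesogenic females and 23.1 ± 3.91 CPM and 25.4 ± 4.35 CPM in the males, and 0.15 ± 0.084 in the smaller set. Grm7 (ENSMUSG00000056755, chromosome 6, 110645581 to 111567230, forward strand) had 0.15 ± 0.069 and Grin3a (ENSMUSG00000039579, chromosome 4, 49661611 to 49845744, reverse strand) 0.17 ± 0.084 (edgeR adjusted p = 0.467 and 0.491). Without the 5 libraries these were 0.086 ± 0.062 and 0.093 ± 0.063. Both genes were lowest, among control females, in control female 5.

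Whether diet acted differently in daughters and sons was tested as an interaction. In edgeR 0 members and 0 genes passed (0% called), and 5 of 41 members had an unadjusted p under 0.05, beside 3.62% of all genes. Among the 4 with the smallest p were Gabrd (-2.99 ± 0.96), Grin2a (-0.64 ± 0.29; ENSMUSG00000059003, chromosome 16, 9567898 to 9995560, reverse strand) and Gabra5 (-0.52 ± 0.24), with edgeR adjusted p = 0.9996 for each. These 3 were negative, that is, the log2 fold change with maternal diet was lower in daughters than in sons. Without the 5 libraries they were -0.65 ± 0.42, -0.29 ± 0.19 and -0.20 ± 0.14.

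Females and males were compared within each maternal diet. Among offspring of control dams 2 of 41 members had an unadjusted p under 0.05, beside 4.39% of all genes, and 0 members passed after adjustment (0% of all genes called). Gabrd (2.601 ± 0.67, females minus males, edgeR adjusted p = 0.468), Grin2a (0.44 ± 0.20), Grm4 (0.47 ± 0.25; ENSMUSG00000063239, chromosome 17, 27422387 to 27521403, reverse strand) and Gria3 (0.23 ± 0.14) had the smallest p, with adjusted p = 0.995 for the last 3. Control female 5 held the highest level of all 4 genes in its group. Without the 5 libraries, which also leaves out the 2 whose sex-linked RNA goes against the label, these values were 0.33 ± 0.30, 0.028 ± 0.14, 0.029 ± 0.13 and -0.061 ± 0.096. Grm4, for example, had a lowest level of 18.3, a median of 25.3 and a highest level of 117 CPM in control females and 22.3 to 31.2 CPM (median 26.3) in control males.

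Among offspring of obesogenic dams 0 of 41 members had an unadjusted p under 0.05 with all libraries, beside 3.63% of all genes (0% called after adjustment). That 0% also covers Xist, which had 205 to 716 CPM (before TMM scaling) in obesogenic females and at most 0.0562 CPM in obesogenic males. The spread in the model takes in control female 7 and control male 7. In both sex comparisons 0% is thus no measure of how many genes differ by sex. Gabra5 had the smallest p. It was 74.2 ± 12.7 CPM in 7 obesogenic females and 94.7 ± 13.7 CPM in 8 obesogenic males, a log2 difference of -0.35 ± 0.17, and 0 of 7 females exceeded the male mean. In the smaller set, where only obesogenic female 3 is missing from these groups, it was -0.39 ± 0.096 with an edgeR adjusted p of 0.228, the smallest of any member in that comparison. Grin2d had 0.17 ± 0.11 (edgeR adjusted p = 1 for both genes with all libraries), and 0.12 ± 0.089 without the 5 libraries. The obesogenic libraries enter both this comparison and the diet comparisons, so their values are not independent.

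Control female 5 stood apart in many other members. In it 18 of 41 members lay above and 11 below the range of the 26 libraries, beside 21.1% and 22.8% of all 18743 genes. Gabrd was 47.5 times the median of the 26 libraries, Grm2 and Grm4 4.71 and 4.56 times, and Grin2c, Grin2a and Grin2b 3.22, 3.20 and 2.88 times. Gabre and Gabrq were lowest, at 0.810 and 2.32 CPM against 25.6 to 76.1 CPM and 95.6 to 158 CPM, or 57.3-fold and 52.1-fold below the median. Grik4 was 8.25-fold, Gabrg1 4.77-fold and Gabbr2 3.83-fold below. Subunit shares shifted with these levels: Gabrd made up 28.6% of the gamma, delta, epsilon, theta and pi sum, Gabrq 0.701%, and Gabra5 39.2% of the alpha sum. In bulk tissue fewer cells of a type and less RNA per cell cannot be told apart.

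In control male 6 the members that stood apart were all low. No member lay above the range of the 26 libraries and 24 of 41 lay below it, beside 26.7% of all genes above and 28.4% below. Gabrb2 was 131-fold below the median of the 26, at 0.479 CPM, and Grin3b, Grik3, Gabrq, Gria4 and Gria2 were 4.63-, 2.49-, 2.40-, 2.27- and 2.23-fold below. The length trend, a measure of the level of long against short genes that is defined further on, was on the log2 scale 2.40 in this library, below the 2.94 to 3.497 of the 26, and 3.44 in control female 5 and 3.65 in obesogenic female 3. Its part in the low levels was not tested. Control male 6 also had reads on 18734 genes, where obesogenic female 3 had 18513 and the other 29 libraries had 21311 or more. In obesogenic female 3, 6 members lay above and 1 below the range, beside 17.7% and 19.9% of all genes.

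**Figure D4:**
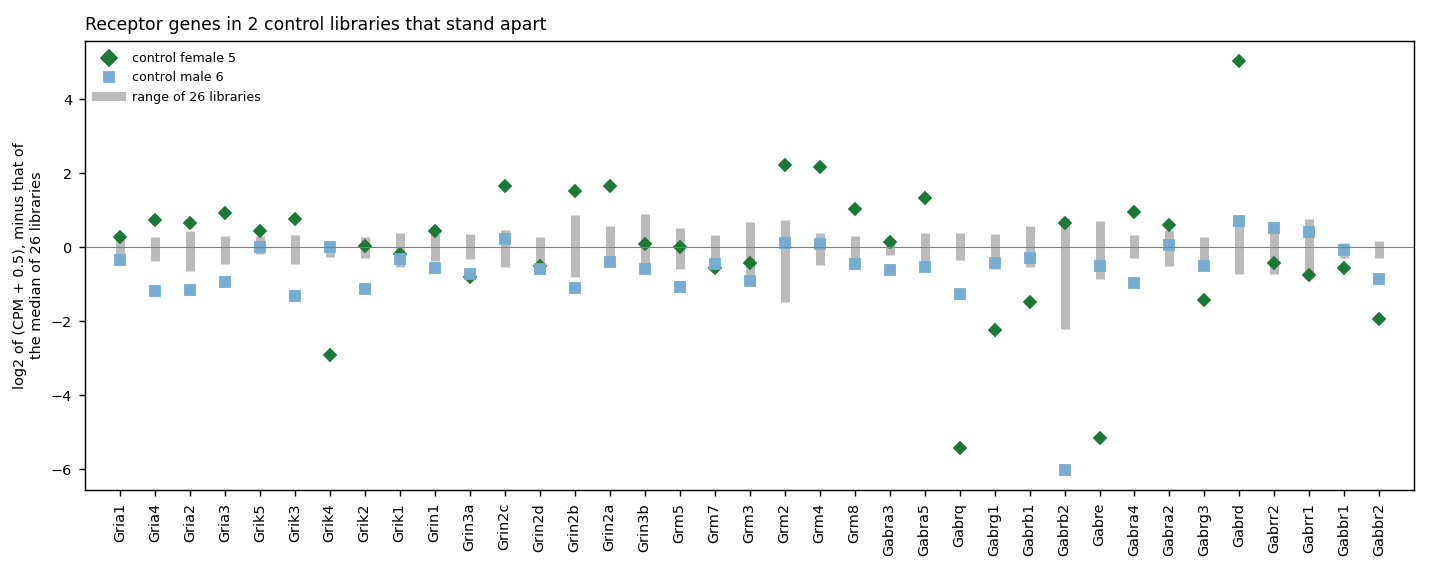
Level of 37 of the 41 receptor genes tested in control female 5 (diamonds) and control male 6 (squares), as log2 of CPM plus a pseudocount of 0.5 minus the same of the median of 26 libraries, with grey bars over the range of those 26. In control female 5 Gabrd lies highest and Gabre and Gabrq lowest, and in control male 6 Gabrb2 lies lowest and 0 members lie above the grey bars.

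Between the 26 remaining libraries the members varied about as much as other genes. Their SDs of log2 CPM (pseudocount 0.5) had a median of 0.221, against 0.233 over all genes tested. Grik4 (SD 0.0996), Gabbr1 (0.102) and Gria1 (0.105) were the steadiest. Gabrb2 (ENSMUSG00000007653, chromosome 11, 42419757 to 42629028, forward strand), singled out after its values were seen, had an SD of 0.758, at percentile 99.6 of all genes. Its levels ran from 13.1 CPM in control female 8, 16.4 in control male 4 and 24.1 in obesogenic female 6 to 109 CPM in obesogenic male 5. The ranges of the 4 groups overlapped: among these 26 libraries control females had 13.1 to 88.6 CPM (median 47.3), obesogenic females 24.1 to 105 CPM (median 77.0), control males 16.4 to 90.1 CPM (median 62.7) and obesogenic males 40.3 to 109 CPM (median 56.9). With all 31 libraries the diet differences were 0.33 ± 0.49 in females and 0.35 ± 0.47 in males (edgeR adjusted p = 0.863 and 0.94), and in the smaller set 0.49 ± 0.40 and 0.19 ± 0.38.

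A property of the libraries moved with these levels. For each library a length trend was computed as the mean log2 level of the longest genes tested (at least 6803 bases of exon) minus that of the shortest (up to 1811 bases), members left out. The members are long, with a median of 6542 bases against 3750 over all genes tested. Across the 26 libraries the log2 level of Gabrb2 rose with the length trend (Pearson r = 0.824, Spearman rho = 0.802, permutation p = 1.0e-05 for both, the smallest that 100000 permutations can give). Without the 2 libraries farthest from the median trend r was 0.767, and after removing group means 0.813. Of 41 members tested this way, 24 had a positive r with a permutation p under 0.05 after Benjamini-Hochberg adjustment over all 18743 genes, and 0 a negative one, beside 15.2% of all genes with a positive and 13.5% with a negative r by that rule. Since the trend is made from long and short genes, the counts were also read by length. Of the 17 members as long as the longest genes used for the trend 14 were positive, beside 43.3% of all genes of that length. Of the 24 shorter members 10 were positive, beside 8.21% of the shorter genes. Those shorter genes include the shortest ones, up to 1811 bases, whose level is subtracted in the trend. The shortest member tested, Gabrr2, had 2105 bases. The 8.21% is thus not matched to these members for length, and the 10 of 24 cannot be judged against it. The median r was 0.549 over members, -0.0323 over all genes and 0.394 over those longest genes. Gria2 (r = 0.893), Grin2b (0.876) and Grm5 (0.872) were among the highest, while Grin1 had 0.053 and Gabbr1 0.103.

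**Figure D5:**
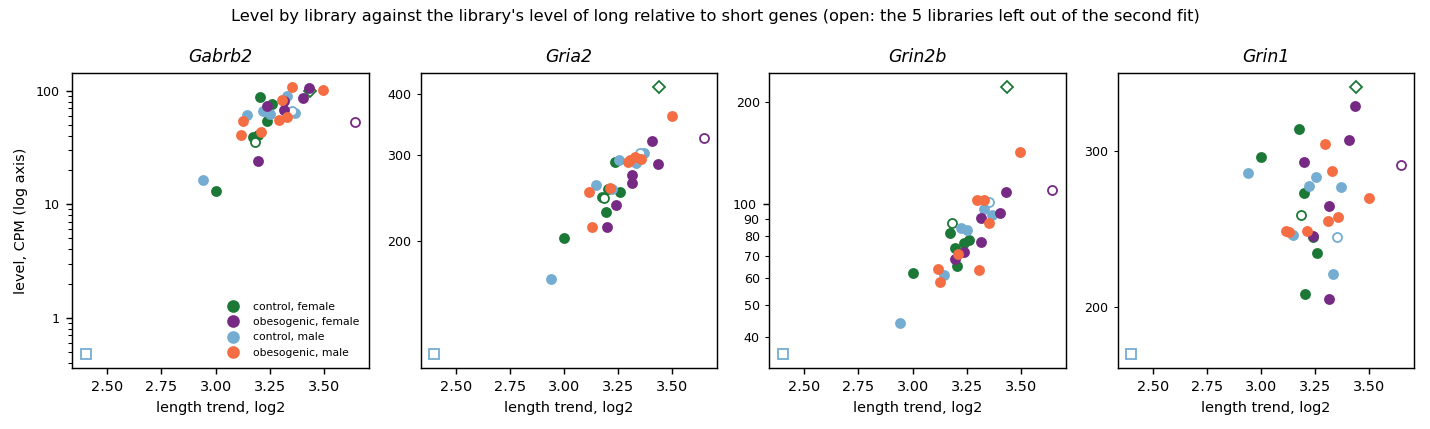
Level of Gabrb2, Gria2, Grin2b and Grin1 in each library, in CPM on log axes, against the length trend of the library (log2 level of long minus short genes), with groups in colour and the 5 libraries left out of the second fit drawn open. The first 3 genes rise with the trend (r = 0.824, 0.893 and 0.876 over 26 libraries) and Grin1 has r = 0.053.

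In the libraries not in doubt the length trend was 3.18 ± 0.0924 in 6 control females and 3.32 ± 0.0913 in 6 obesogenic females, and 3.21 ± 0.153 in 6 control males and 3.28 ± 0.126 in 8 obesogenic males. The trend was also used as a covariate in a fit of all 31 libraries, an alternative chosen after seeing the data. That fit thus held the 5 libraries in doubt, with trends of 2.40 in control male 6, 3.44 in control female 5 and 3.65 in obesogenic female 3. A fit with the trend but without those 5 was not run. With the trend in the model 20 of 41 members were positive in males (median -0.0098), down from 33, beside 52.2% of all genes. In females 15 of 41 were then positive (median -0.10) beside 46.7%, and 14 members, all lower, had an unadjusted p under 0.05 where 6.88% of all genes were lower by that measure. 0 members passed after adjustment in that fit, beside 0.00534% of all genes, the smallest edgeR adjusted p being 0.227 in females. Counts of members above 0 in both sexes thus depended on whether the trend was in the model. What the trend stands for was not tested.

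Genes around the receptors were read from 4 lists. Of 13 genes for glutamate release, uptake and metabolism, 6 were positive in females and 8 in males. Of 32 receptor partners and scaffolds on the glutamate side, 6 were positive in females (median -0.14) and 28 in males (median 0.062). Of 8 genes for GABA synthesis, release, uptake and breakdown, 4 and 6 were positive, and of 14 GABA receptor partners and chloride transporters 6 and 10. Of all genes tested 47.5% were positive in females and 50.1% in males. These counts are from all 31 libraries, control female 5 included. Dlgap1 and Gad1, for example, changed sign in females without the 5 libraries in doubt. No gene of these lists passed in edgeR after adjustment in either sex. At an unadjusted p under 0.05 stood 1, 5, 1 and 2 genes of the lists, in that order, in females and 1, 1, 0 and 0 in males, beside the shares of all genes given above.

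For several partners the value in females also moved with control female 5. Slc17a7, a vesicular glutamate transporter that is also in the cortex and olfactory bulb marker lists, had 94.5 ± 247.97 CPM in the control daughters, from 708 CPM in control female 5, and 1.31 ± 1.48 CPM in obesogenic females (log2 fold change -6.19 ± 1.52, edgeR adjusted p = 0.5; -0.92 ± 0.97 without the 5 libraries). In males its difference of 3.43 ± 1.38 (adjusted p = 0.94) came with 46.03 CPM in obesogenic male 7, where the group's median was 2.81 CPM. A fit without that library was not run. Gad1, which makes GABA, had 564 ± 661 CPM and 361 ± 44.2 CPM in control and obesogenic females, a difference of -0.64 ± 0.32 that was 0.11 ± 0.12 without the 5 libraries. Dlgap1, a postsynaptic scaffold, and Kctd12, an auxiliary subunit of GABA-B receptors, had -0.73 ± 0.31 and -0.71 ± 0.27 in females, and 0.019 ± 0.11 and -0.11 ± 0.09 in the smaller set. Cacng3, an auxiliary AMPA receptor subunit, had -0.34 ± 0.14 and -0.11 ± 0.11. Their edgeR adjusted p-values were 0.549 to 0.615 with all libraries.

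Slc12a5, the chloride extruder KCC2 on which inhibition through GABA-A receptors depends, was the partner with the smallest p on the GABA side. It had 454 ± 40.2 CPM in 8 control and 542 ± 85.9 CPM in 7 obesogenic females, a log2 fold change of 0.26 ± 0.087 (edgeR adjusted p = 0.524) and 0.23 ± 0.091 without the 5 libraries. In males it had 477 ± 49.2 CPM and 529.8 ± 51.0 CPM, a change of 0.15 ± 0.084 (adjusted p = 0.94). The next genes in females also leaned on libraries in doubt. Aldh5a1, which breaks down the product of GABA transamination, had 0.17 ± 0.085, and 0.10 ± 0.082 without the 5 libraries, its highest level of 233 CPM being that of obesogenic female 3. The amino acid transporter gene Slc1a4 had 0.15 ± 0.10, and 0.051 ± 0.067 without control female 5, which had 55.4 CPM where the other control females had 98.0 to 126 CPM.

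In males 3 of the next genes moved with control male 6. Cacng4, an auxiliary AMPA receptor subunit, had 158 CPM in that library against 79.0 to 87.7 CPM in the other control males, and its difference of -0.19 ± 0.11 was -0.045 ± 0.07 without it. The GABA transporter gene Slc6a13 had -0.47 ± 0.38, and -0.24 ± 0.39 without that library. The GABA transaminase gene Abat had 0.14 ± 0.12 and 0.049 ± 0.094, with 456 CPM in control male 6, the lowest of its group. Nsf, an ATPase of membrane fusion, had 0.20 ± 0.093 and 0.15 ± 0.088, and Kctd16, another GABA-B auxiliary subunit, 0.64 ± 0.33 and 0.49 ± 0.31.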

How the data were processed

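Hypothalamic RNA was sequenced in 31 libraries. The deposited values are raw counts of read pairs per gene, made by the authors with featureCounts 1.6.2 on Ensembl annotation release 94 of GRCm38, counting the reverse strand and pairs with both ends mapped at a mapping quality of at least 10, per the file headers. The submitters' processing notes name FastQC, TopHat2 2.0.13, Subread, edgeR and mm10. Groups came from the labels' maternal diet and sex, and replicate numbers only name libraries.

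Counts were tested in R 4.3.3 with edgeR 4.0.16 (low-count filter, TMM scaling, 1 mean per group over 31 libraries, robust quasi-likelihood fit, Benjamini-Hochberg adjustment over 18743 genes, threshold 0.05), a script checked on simulated data. CPM values were scaled with the TMM factors, and log2 levels used a pseudocount of 0.5 CPM. Alternatives were DESeq2 1.42.0, limma 3.58.1 with voom and quality weights, another scaling and other filters, subsets of libraries, fits of only the 2 groups compared, and the length trend as a covariate, which was chosen after seeing the data. At 23118626 to 38547288 read pairs per library, precision is lowest for members near 1 CPM. No 2 libraries of a group agreed within sampling noise (chi-square of at least 10.4 per degree of freedom). The members and lists were chosen with earlier results of these data known. Tests are printed for the 4 members of smallest p in each of 6 contrasts, the most abundant member of each family per length, and Gabrd and Gabra6; of each partner list, for the 2 genes of smallest p per sex. Some of the genes these rules select are not reported here, in text or figures. Gabrb2 was singled out after its values were seen.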

Additional observations from a re-analysis of the deposited data

Results flagged for a closer look

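Levels of 18 named members were checked in the 4 groups, 72 sets in all, for a library whose gap to its nearest neighbour took up an unusually large part of the group's range. Chance marks about 1 in 20 such sets where genes are unselected, and 12 were marked, most of them by 2 libraries. Many of the 18 members were named for a small p in these same data, and the sets share libraries. The 12 can therefore not be held against that rate. Control female 5 was the highest of the 8 control females for Gabrd (50.8 CPM, the others 0.895 to 2.31), Gabra5 (220.5 CPM, the others 72.2 to 97.5), Gabra4 (81.9 CPM, the others 39.1 to 47.5), Gria1 (667 CPM, the others 522 to 567.5), Gria3 (126 CPM, the others 56.3 to 69.5), Grin2a (64.7 CPM, the others 15.4 to 26.2) and Grm4 (117 CPM, the others 18.3 to 33.5). It was the lowest for Gabbr1 (605 CPM, the others 805 to 949) and Grm7 (35.04 CPM, the others 47.4 to 53.5). Control male 6 was the lowest of the 8 control males for Gabra3 (111 CPM, the others 151 to 179) and Gabra5 (60.3 CPM, the others 85.6 to 104).

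The remaining set came from a library that was not in doubt. Control male 2 had the highest level of Grik1, a kainate receptor subunit (31.7 CPM, the others 19.99 to 24.8).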

How the results depend on the processing

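No paired analysis was possible because the replicate numbers follow the order of deposition and the labels name no animal, litter or batch that groups share. Under 13 alternatives 0 members passed the adjusted threshold in any contrast, and 418 of 435 values of the 34 named gene results kept their direction. The other 17 values, of 10 results, changed sign. In females the log2 fold change of Gria1 ran from -0.0046 (without obesogenic female 3) to 0.047 on leaving out single libraries, and was -0.0057 without the 2 libraries against their sex label, -0.0078 without the 2 libraries with 2 numbers in their titles, -0.00094 with only the 2 groups compared and -0.073 with the length trend, under which Gabrb2, Grin1 and Grm5 also turned, to -0.28, -0.046 and -0.11. In males Gabra3 was -0.015 by limma voom, Gabbr1 -0.00045 and Gria1 0.0039 without the 2 libraries against their sex label, and Gabbr1 -0.011 and Grin1 -0.0032 without 5 libraries. Between sexes in control offspring Gria3 was -0.038 by limma voom and -0.061 without 5 libraries, and Grm4 -0.083 by limma voom and -0.070 (without control female 5) to 0.498 on leaving out single libraries. Gene counts past the threshold, 0 in all 6 contrasts, became with DESeq2 6 for diet in females, 1 in males, 5 for their mean, 6 for the interaction, 1 for sex in control and 12 for sex in obesogenic offspring. For sex in obesogenic offspring they were 3 with limma voom, 0 to 2 on leaving out single libraries, 9 without the 2 libraries against their sex label (10 in control offspring), 14 without 5 libraries (11 in control offspring), 12 with only the 2 groups and 3 with the length trend, which gave 1 for diet in females. The cause of these changes was not tested. Gabrd near 1 CPM, Grin3b and Gabrr1 are limited by depth.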
